A study of Mus musculus with 4 samples.

Results

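Prostaglandins are local lipid signals, and the 10 genes described here make them, carry them, sense them or break them down. They are the cyclooxygenases *Ptgs1* and *Ptgs2*, the terminal synthases *Ptges*, *Ptgds*, *Hpgds* and *Ptgis*, the receptors *Ptger3* and *Ptger4*, the carrier *Slco2a1* and the degrading enzyme *Hpgd*. They were chosen by symbol, with no threshold on their values, out of 31053 genes listed, and all 10 were detected.

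The libraries hold single-cell RNA from whole mouse hippocampi, dissociated without a sort and read with the 10x droplet method, which tags each molecule with a unique molecular identifier (UMI). All mice were C57BL/6 wild types. In 2VO mice both common carotid arteries were clamped for 50 min, in sham mice the same clamps were released at once, and the tissue was taken on day 7. The labels give an age of 12 weeks and a dissociation at 37 °C, whereas the methods of the study give 6 to 10 weeks and 34 °C. Each library came from 1 mouse. The libraries used are sham 1, sham 2 and 2VO 1. The library 2VO 2 was not used here, so that 2VO stands on 1 mouse throughout. The question was in which cells each gene of the pathway is used, and where its level differed between 2VO and sham.

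A barcode counted as a cell from 650 detected genes on, which left 5109, 5126 and 3912 cells in sham 1, sham 2 and 2VO 1 with 64667950, 39017426 and 17681002 UMIs. 2VO 1 was the shallowest library, with a median of 2311 UMIs per cell against 8191 and 5249. Of the barcode sequences, 26 occurred in more than 1 library. The cells were clustered without the 10 genes and the clusters were named from marker genes, so that each name stands for cells like that type. In all, 15 classes had at least 10 cells in every library. The vascular classes were endothelial cells (ECs), fenestrated ECs, vascular leptomeningeal cells (VLMCs), smooth muscle cells of vessels (VSMCs) and pericytes (PERs). The others were microglia, macrophages, astrocytes (ASTs), oligodendrocytes (OLGs), oligodendrocyte precursor cells (OPCs), committed OPCs, choroid plexus epithelial cells (CPECs), glutamatergic neurons (GLUTNs), neural progenitor cells (NPCs) and Cajal-Retzius neurons. A level is given as CPM, the counts scaled by the size of the class's total in that library and by edgeR's TMM factor, always in the order sham 1, sham 2, 2VO 1. Fold changes are on the log2 scale with their SE, from edgeR's quasi-likelihood test on counts summed per library and class. A gene was called at a Benjamini-Hochberg adjusted p under 0.05 and a fold over 1.5.

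Both cyclooxygenases turn arachidonic acid, released from membranes by phospholipases, into the unstable precursor PGH2. *Ptgs1* is largely constitutive, while *Ptgs2* is an immediate early gene that is induced by inflammatory signals, and in brain vessels it is known as a source of PGE2 in fever. The terminal synthases then set which prostanoid is made, PGE2 by *Ptges*, PGD2 by *Ptgds* and *Hpgds*, and prostacyclin by *Ptgis*. *Slco2a1* carries prostaglandins into cells, where *Hpgd* oxidises them to inactive products.

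*Hpgds* and *Hpgd* were highest in macrophages and microglia, and *Ptgs1* in microglia and fenestrated ECs. *Ptgds* was highest in VLMCs and OLGs, *Ptges* in VLMCs and *Ptgis* in VSMCs. For *Ptgs2* the mean over the libraries was highest in ECs, whose range overlapped that of VLMCs. That rank rested on the 2VO library, since VLMCs had a higher *Ptgs2* level than ECs in both sham libraries. In sham 1 the highest class was GLUTNs. The 10 genes summed to very different counts over the 14147 kept cells, from 55 for *Ptger3* to 725184 for *Ptgds*, and the remaining genes lay between 122 for *Ptger4* and 1933 for *Hpgd*. *Ptger3*, *Ptger4* and *Slco2a1* were therefore measured with low precision.

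**Figure D1:**
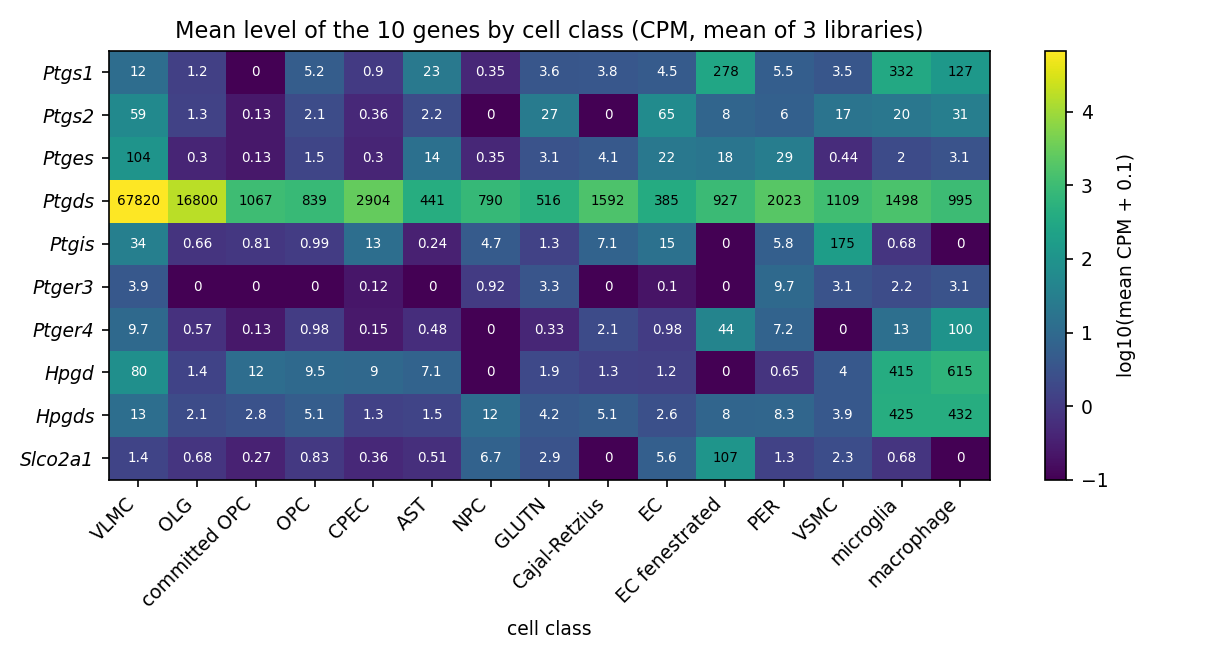
Mean level of the 10 genes (rows) in the 15 classes (columns), as CPM averaged over sham 1, sham 2 and 2VO 1 and printed in each cell, with colour on a log10 scale after adding 0.1. *Ptgds* in VLMCs stands at 67820 CPM and *Ptgs1*, *Hpgd* and *Hpgds* share high levels in microglia and macrophages.

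Of the 150 pairs of gene and class, 52 passed the filter on low counts, and 8 of these were called higher and 1 lower in 2VO 1. Over all genes, 2.3% of the tests in these classes were called higher and 3.14% lower. DESeq2, which gave an adjusted p for 36 of the 52 pairs, called 4. Both fits assume that the single 2VO library varies like the sham libraries do, which leaves 1 residual degree of freedom. The 9 calls were *Ptgs2* and *Ptgds* in ECs, *Ptgds* in fenestrated ECs, VSMCs, macrophages and GLUTNs, *Ptgs1* in OPCs, *Hpgds* in CPECs and *Hpgd* in microglia. The filter on low counts keeps a gene that reaches its level in any library. *Hpgds* in CPECs and *Ptgs1* in OPCs reached it only in 2VO 1, so these pairs could only be called higher. The shares of genes called in the other direction were 0.659% lower in ECs, 6.15% lower in CPECs, 0.0686% lower in VSMCs, 0.692% lower in macrophages and 4.11% higher in microglia. In the classes without a call of the 10 genes, the background was 1.02% higher in VLMCs, 0.0191% higher in ASTs and 5.66% lower in NPCs, and 0.0% in either direction in OLGs, PERs and committed OPCs. Over all kept cells together, none of the 10 genes and none of the 17147 genes tested was called by edgeR (background 0.0% in either direction), and DESeq2 called 1 of the 10.

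**Figure D2:**
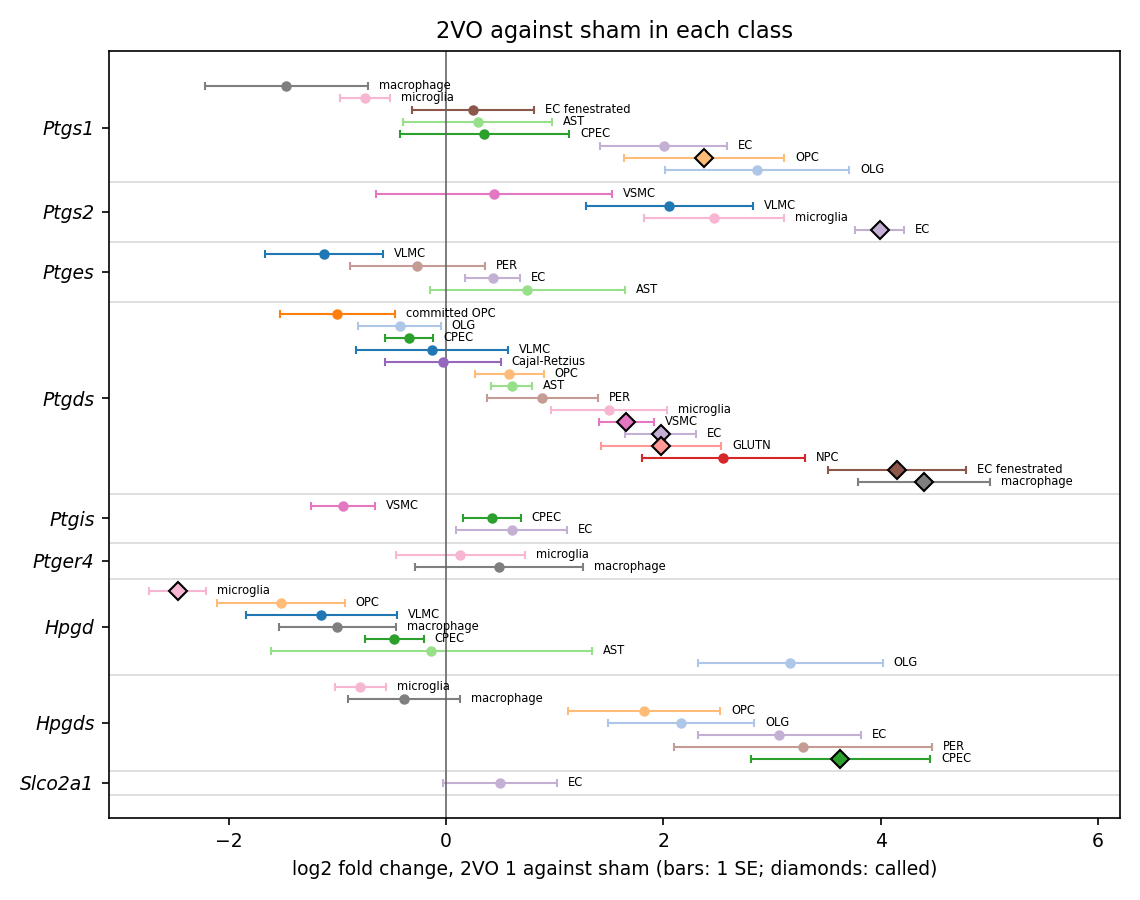
Log2 fold change of 2VO 1 against sham for each gene in each class where it passed the filter, with bars of 1 SE; diamonds mark the 9 calls. The plot holds 51 pairs and leaves out 1, *Ptgs2* in GLUTNs, whose 2VO 1 count was 0. The smallest SE among the calls is that of *Ptgs2* in ECs, at 3.99 ± 0.22.

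*Ptgs2* (chr1:150100031-150108227, plus strand, GRCm38) encodes the inducible cyclooxygenase COX-2. In ECs it was counted 34, 74 and 584 times, which is 8.58 and 12.9 CPM in the sham libraries and 175 CPM in 2VO 1. Both sham libraries were low and close to each other, and 2VO 1 lay far above them. *Ptgs2* rose by 3.99 ± 0.22 on the log2 scale (adjusted p = 1.6e-05, edgeR's quasi-likelihood test), where 2.44% of the genes tested in ECs were called higher. DESeq2 and every other alternative with a test, 8 of 8, also called it, at 3.82 to 4.01.

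The share of cells with a *Ptgs2* UMI was higher as well. In ECs 1.58%, 2.19% and 10.8% of cells held one (exact Clopper-Pearson 95% interval in 2VO 1 9.05 to 12.7%), and the cell with most counts in 2VO 1 held 35 of the 584. After every cell was thinned to 1000 UMIs, which evens out the depth, the shares were 0.102%, 1.01% and 5.76%. In OPCs, the background here as the large class with the lowest shares, they were 0.166%, 0% and 0.879%, at median depths of 7036, 6837 and 2642 UMIs. The 0 of 296 OPCs of sham 2 allow a share of up to 1.01%. Of all *Ptgs2* counts in the kept cells, ECs held 28.8%, 63.2% and 84.2%.

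*Ptgs2* differed between vessel segments. ECs were clustered again, and venous and arterial groups were named from markers such as *Vwf* and *Nr2f2* or *Bmx* and *Gkn3*. Venous ECs (70, 87 and 110 cells) had 68.9, 132 and 873 CPM, the highest *Ptgs2* level of any group in every library but sham 1, where GLUTNs had 71.2 CPM. They rose by 3.12 ± 0.35 (adjusted p = 2.3e-16, with 1.89% of genes called higher). In 2VO 1 the venous ECs, 110 of the 1160 ECs, held 397 of the 584 endothelial counts, and 55.5% of them held a UMI against 14.3% and 18.4% in sham. After thinning these shares were 30.3%, 1.45% and 9.2%.

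Arterial ECs had 5.58, 9.06 and 88.4 CPM and rose by 3.46 ± 0.48 (adjusted p = 2.4e-07, 1.21% called higher). The remaining ECs, in which fewer than 3 markers of any segment were detected, had 0.351, 3.73 and 34.5 CPM and rose by 3.90 ± 0.62 (adjusted p = 0.044, 0.567% called higher and 0.072% lower). Their subclusters also differed between libraries: the one led by *Hspa1b*, *Hspa1a*, *Nr4a1* and *Fosb*, stress and immediate early genes among them, held 4, 2 and 264 cells, and the one led by *Ndnf* and *Car4* held 203, 268 and 25. A mixed endothelial group, led by genes of other classes, had 17.4, 0 and 253 CPM and was called as well, at 4.89 ± 0.68 (adjusted p = 1.3e-05, 0.673% called higher and 0.0531% lower). In 2VO 1, 78 of its 94 cells came from a subcluster led by the myelin genes *Mag* and *Trf*, in which 5 of 7 venous markers were detected. DESeq2 kept the venous call and no call of the other groups, and the arterial call was also lost without the filter on low counts. Without sham 2 the mixed value was 3.34, and that of the remaining ECs was 3.02 without sham 1 and 4.91 without sham 2. Leaving the mixed group out of the ECs kept the call of the class. In arterial and mixed ECs *Ptgs2* passed the low-count filter only through 2VO 1, so those calls could only come out higher.

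The venous cells were of different kinds in the groups. One venous subcluster, led by *Adgrg6*, *Nr2f2* and *Flrt2*, held 68, 73 and 13 cells with 23, 12 and 1 *Ptgs2* counts. The other, led by *Lcn2*, *Lrg1*, *Ackr1* and *Sele*, held 2, 14 and 97 cells with 4, 37 and 396 counts, and a UMI was found in 2, 8 and 60 of them. *Lcn2*, *Lrg1* and *Sele* are genes that inflamed endothelium switches on, and 2 of them, *Lcn2* and *Lrg1*, are among the markers that named the venous group. Within this subcluster the level was 239, 263 and 845 CPM without scaling between libraries, on 2 and 14 sham cells. A list of 19 immediate early genes, which dissociation can also induce, stood beside it. In venous ECs 10 of 19 were called higher (median log2 fold change 1.31, against -0.02 over all genes), with summed levels of 8013, 18060 and 28840 CPM, whereas in all ECs 1 of 19 was (median 0.06 against -0.01). In all ECs 12 of 13 microglial transcripts were called higher (median 2.98), at summed levels of 65.4, 61.9 and 421 CPM. Their part in the result was not tested.

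**Figure D3:**
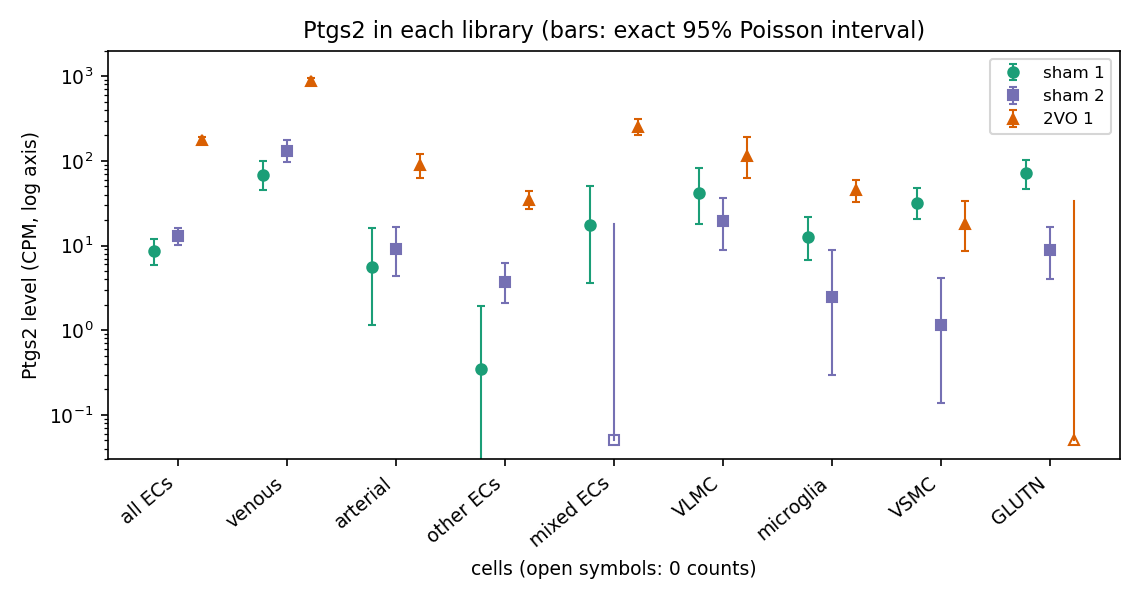
*Ptgs2* level in each library, as CPM on a log axis, for all ECs, their venous, arterial, other and mixed groups, and for VLMCs, microglia, VSMCs and GLUTNs, with exact 95% Poisson intervals as bars; open symbols mark 0 counts. 2VO 1 lies above both sham libraries in the 5 endothelial sets, in VLMCs and in microglia, and below sham 1 in VSMCs and GLUTNs.

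Elsewhere *Ptgs2* was sparse and was not called. VLMCs had 42.2, 19.4 and 116 CPM from 8, 9 and 14 counts (2.06 ± 0.77, adjusted p = 0.37), and microglia had 12.8, 2.44 and 44.9 CPM (2.46 ± 0.64, adjusted p = 0.065). In GLUTNs, where *Ptgs2* is known to follow neuronal activity, 27, 9 and 0 counts were found, and 1 cell held 21 of the 27. The 15 GLUTNs of 2VO 1 are too few to tell such a level from 0. The differences of the 2VO effect between ECs and VLMCs, VSMCs or microglia did not pass the test of the difference (adjusted p = 0.44, 0.71 and 0.38). The term for ECs against GLUTNs was fitted against 0 counts in 2VO 1, and no difference is read from it.

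Sequence from the start of *Ptgs2* is shown because its call in ECs had the smallest SE among the calls by class. The 30 bases lie just after the annotated start, and the capitals mark ACGTCA, the core of a cyclic AMP response element, which overlaps the E-box CACGTG.
Ptgs2 chr1:150100032-150100061 (+, GRCm38.p6): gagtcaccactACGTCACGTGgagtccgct
Of 32851 RefSeq windows of 300 bases (250 before a gene's start and 50 from it on), 7.51% held ACGTCA and 7.15% held CACGTG on either strand. GGGANTTCC, a form of the NF-kappaB element, was found in 1.68% of windows and in none of those of the 9 genes with a window, which says nothing of the factor.

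*Ptgs1* (chr2:36230426-36252272, plus strand) encodes the constitutive COX-1. Microglia had 381, 387 and 229 CPM (-0.75 ± 0.23, adjusted p = 0.098), and held 74.2% of all its counts. Fenestrated ECs, found in the choroid plexus, had 277, 245 and 313 CPM from 16, 9 and 13 counts (0.25 ± 0.56), overlapping microglia. Macrophages followed with 226, 98.6 and 55.2 CPM (-1.47 ± 0.75, adjusted p = 0.30) and ASTs with 18.8, 24.4 and 26.6 CPM. ECs proper had 3.03, 1.57 and 8.98 CPM. *Ptgs2* had 0, 0 and 1 counts in the fenestrated ECs.

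*Ptgs1* was called higher in OPCs, on few counts, and it passed the low-count filter there only through 2VO 1. It had 12, 2 and 19 counts there, or 2.88, 1.09 and 11.8 CPM, and rose by 2.37 ± 0.74 (adjusted p = 0.040), where 11.1% of all genes were called higher in OPCs. The call was kept in 2 of 6 alternatives with a test and lost under other filters and clusterings (adjusted p up to 0.13), the smallest value being 1.79 after doublets were removed. Microglial transcripts moved with it: 11 of 13 were called higher in OPCs (median 3.29, against -0.02 over all genes), with summed levels of 172, 50.7 and 998 CPM. Per 1000 counts of that list, *Ptgs1* had 16.7, 21.5 and 11.8 counts in OPCs and 8.09, 7.66 and 8.28 in microglia. The libraries also filled the 2 OPC clusters differently, with 551, 257 and 61 cells in cluster 4 and 50, 39 and 394 in cluster 10. The median depth was 6948 UMIs per cell in cluster 4 and 2529 in cluster 10. *Ptgs1* had 4, 2 and 0 counts in cluster 4 and 8, 0 and 19 in cluster 10, or 15.1, 0 and 15.8 CPM, so that within cluster 10 the level of 2VO 1 was close to that of sham 1. The part of these clusters and transcripts in the result was not tested.

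*Hpgds* (chr6:65117293-65144908, minus strand), encodes the haematopoietic PGD2 synthase. Macrophages had 470, 468 and 359 CPM (-0.39 ± 0.51) and microglia 515, 474 and 286 CPM (-0.79 ± 0.23, adjusted p = 0.088), with overlapping ranges, and no other class had a mean over 17.0 CPM. In both classes 2VO 1 was the lowest library, and neither was called. In sham microglia most cells with a *Ptgs1* UMI also held one of *Hpgds*, 88.8% in sham 1 and 85.5% in sham 2, against 55.5% in the shallower 2VO 1.

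The windows of both genes hold the letters GAGGAAGT, a form of the PU.1 element of myeloid genes, which 3.2% of all windows hold. The window of *Hpgd*, which was also high in microglia and macrophages, does not hold them. Both stretches are shown with these letters in capitals.
Ptgs1 chr2:36230391-36230420 (+, GRCm38.p6): aggctggagcaGAGGAAGTtggcggtcagc
Hpgds chr6:65144761-65144790 (-, GRCm38.p6): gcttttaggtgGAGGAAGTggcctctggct
Counted from the RefSeq start of each window, the first G lies 24 bases before it in *Ptgs1* and 49 bases before it in *Hpgds*, whose RefSeq start lies inside the gene bounds given above. *Spi1*, which encodes PU.1, was among the 3 genes whose level over classes and libraries was most like that of *Hpgds* (Pearson r = 0.91 over 45 points of 15 classes, given with no test because the points share libraries).

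*Hpgds* was called higher in CPECs, the epithelium that makes cerebrospinal fluid. The counts were 2, 5 and 28, or 0.0851, 0.588 and 3.08 CPM, and the gene rose by 3.63 ± 0.83 (adjusted p = 0.0062, with 2.61% of genes called higher in CPECs). DESeq2 gave no adjusted p for it, and without sham 1 the value was 2.02. In CPECs *Hpgds* passed the low-count filter only through 2VO 1, so it could only be called higher. Microglial transcripts again moved with it, with 10 of 13 called higher in CPECs (median 2.11 against 0.01 over all genes) at summed levels of 41.4, 40.6 and 134 CPM. Per 1000 of these counts *Hpgds* had 2.05, 14.5 and 23.0 in CPECs and 10.9, 9.37 and 10.4 in microglia. Their part in the result was not tested. ECs, with 3, 4 and 21 counts, missed the threshold (3.07 ± 0.75, adjusted p = 0.060). Per 1000 of the microglial transcripts, of which 12 of 13 were called higher in ECs, *Hpgds* had 11.6, 11.3 and 15.0 counts there.

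*Hpgd* (chr8:56294585-56321043, plus strand) encodes 15-hydroxyprostaglandin dehydrogenase, the enzyme that begins the breakdown of PGE2. It was the 1 gene of the 10 called lower. Microglia had 613, 442 and 101 counts, or 603, 540 and 103 CPM, and 2VO 1 lay far below both sham libraries. *Hpgd* fell by 2.47 on the log2 scale (SE 0.26, adjusted p = 0.0063), where 2.33% of genes tested in microglia were called lower. The call was kept in 7 of 7 alternatives other than the split into clusters below, at -2.68 to -2.46, DESeq2 among them. A UMI was found in 78.4%, 70.9% and 17.3% of microglia, and in 43.9%, 37.0% and 11.1% after thinning to 1000 UMIs. In PERs, the background class, the shares were 0%, 0.452% and 0%, and the 0 of 166 PERs of 2VO 1 allow up to 1.81%.

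Microglia fell into 2 clusters, and the libraries filled them differently. Cluster 12, led by the homeostatic genes *P2ry12*, *Gpr34* and *Cx3cr1*, held 149, 138 and 24 cells. Cluster 9, led by *Mpeg1*, *Lag3* and *Csf1r*, held 64, 65 and 358 cells. The clusters also differed in depth, with a median of 4894 UMIs per cell in cluster 12 and 1760 in cluster 9. *Hpgd* had 727, 610 and 366 CPM in cluster 12 and 289, 228 and 87.3 CPM in cluster 9, so that 2VO 1 was below both sham libraries within each cluster and cluster 9 was below cluster 12 within each library. Tested within a cluster, in comparisons added after the class result, the fold changes were -0.87 ± 0.33 (adjusted p = 0.31, where 0.325% of genes were called lower) and -1.57 ± 0.60 (adjusted p = 0.49, 0.271% called lower), and the call was lost in both.

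*Hpgds* and *Ptgs1* were measured in the same clusters. *Hpgds* had 568, 496 and 554 CPM in cluster 12 and 388, 371 and 295 CPM in cluster 9, and *Ptgs1* had 450, 409 and 377 CPM and 209, 287 and 244 CPM. Neither was called in either cluster, where 0.447% of genes were called higher in cluster 9 and 0.623% in cluster 12, and each gene had 1 cluster in which 2VO 1 fell inside the sham range. Per 1000 counts of 13 microglial transcripts, which were summed over all microglia, *Hpgd* had 12.8, 10.7 and 3.73 counts, *Hpgds* 10.9, 9.37 and 10.4, and *Ptgs1* 8.09, 7.66 and 8.28. *Hpgd* alone of the 3 was lower in 2VO 1 on this scale, and this ratio was not tested. Beside the fall, 5 of the 13 microglial transcripts were called lower in microglia (median -0.82 against 0.01 over all genes, summed levels 47050, 50550 and 27620 CPM), 9 of 10 endothelial transcripts higher and 1 lower, and 10 of 19 immediate early genes lower. Their part in the result was not tested.

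**Figure D4:**
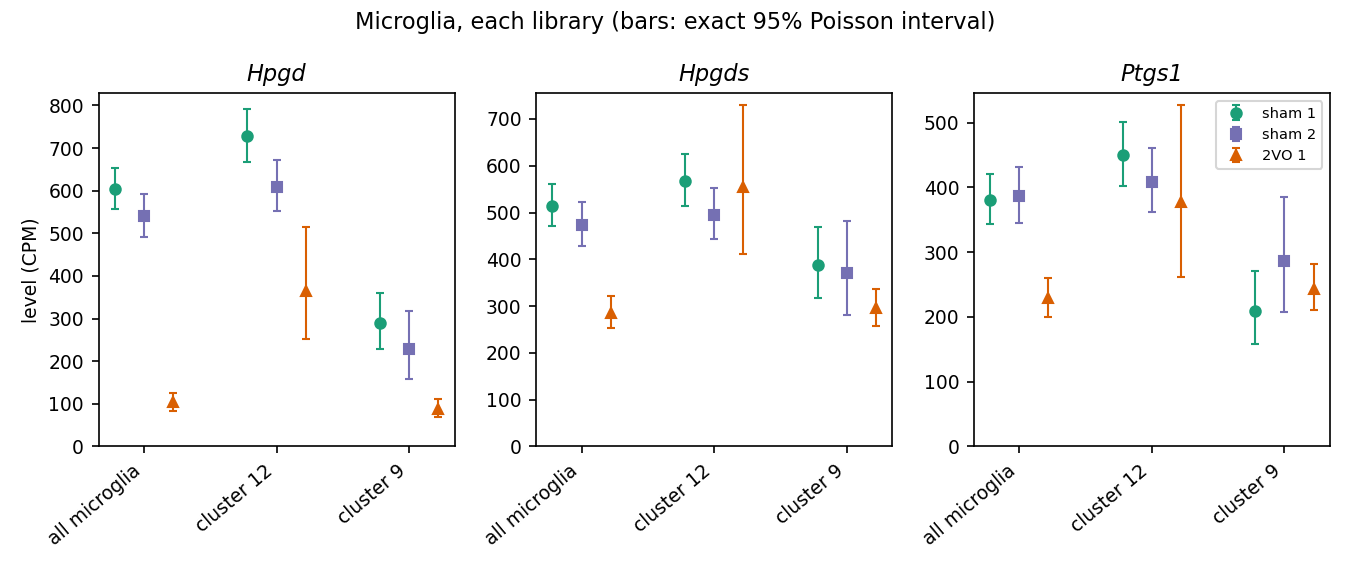
Level of *Hpgd*, *Hpgds* and *Ptgs1* in CPM (linear axes from 0) for all microglia and for their clusters 12 and 9 in each library, with exact 95% Poisson intervals as bars. *Hpgd* in 2VO 1 is the lowest point of each set, whereas the 2VO 1 intervals of *Hpgds* and *Ptgs1* overlap those of sham within both clusters.

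*Hpgd* was also high in macrophages, at 749, 727 and 368 CPM (-1.0 ± 0.54, adjusted p = 0.32). The difference of the 2VO effect between microglia and macrophages did not pass its test (adjusted p = 0.48), so the call in microglia is not shown to be particular to them. VLMCs had 137, 62.5 and 41.4 CPM (-1.15 ± 0.70), OPCs 14.4, 9.81 and 4.34 CPM (-1.52 ± 0.59, adjusted p = 0.082) and CPECs 9.91, 9.99 and 7.16 CPM (-0.47 ± 0.27). The OPC counts were 55, 18 and 1 in cluster 4, where most sham OPCs lay, and 5, 0 and 6 in cluster 10, where most of those of 2VO 1 lay. In CPECs the count per 1000 microglial transcripts was 239, 246 and 53.4, far above that in microglia. OLGs had 9, 2 and 10 counts.

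*Ptgds* (chr2:25466709-25470046, minus strand) encodes lipocalin-type PGD2 synthase, a secreted protein of the meninges, the choroid plexus and OLGs. It had the most counts of the 10 genes. VLMCs had 44110, 95480 and 63880 CPM (-0.13 ± 0.70), OLGs 14160, 22560 and 13670 CPM (-0.43 ± 0.38) and CPECs 3083, 3163 and 2466 CPM (-0.34 ± 0.22), and in none of the 3 was it called. The order of these 3 classes was the same in every library, and the ranges of VLMCs and OLGs did not overlap. In sham 1, 1 cell held 4547 of the 8371 VLMC counts. OLGs held 70.7% of all *Ptgds* counts. Within OLGs, the subtype with *Klk6* had 2784, 4144 and 3052 CPM against 17070, 28830 and 15110 CPM in the others, and committed OPCs, the step before OLGs, had 777, 1790 and 634 CPM. No OLG group had a call, where 0.0107% of genes were called higher in the *Klk6* subtype, 4.38% higher and 9.02% lower in the largest group, and 3.64% higher and 4.93% lower in a mixed group.

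*Ptgds* was called higher in 5 other classes. In ECs it had 262, 127 and 764 CPM (1.98 ± 0.33, adjusted p = 0.013), though RLE scaling and DESeq2 lost this call. The mixed endothelial group held 767, 50 and 1364 of the 1039, 728 and 2553 endothelial counts, at 4449, 243 and 4252 CPM (0.86 ± 0.71, adjusted p = 0.77). In VSMCs it had 574, 714 and 2040 CPM (1.66 ± 0.25, adjusted p = 0.0046, 0.538% of genes called higher), and in macrophages 105, 148 and 2732 CPM (4.4 ± 0.61, adjusted p = 7.1e-11, 5.17% called higher). Both of these calls were kept in 7 of 7 alternatives, though with values of 3.14 in VSMCs and 3.50 in macrophages after Scrublet doublets were removed, and of 1.98 in macrophages with barcodes of at least 200 genes. For ECs the value was 2.80 after doublets were removed and 2.60 without sham 1. The sham libraries lay close to each other in VSMCs and macrophages, and 2VO 1 was above both.

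The other 2 calls rested on few cells. Fenestrated ECs had 225, 27.2 and 2528 CPM (4.15 ± 0.63, adjusted p = 0.0023, 1.16% called higher), and 1 cell of 2VO 1 held 70 of the 105 counts. That value was 5.0 without sham 1, 3.27 without sham 2 and 3.2 with barcodes of at least 200 genes. GLUTNs had 76.5, 434 and 1036 CPM (1.98 ± 0.55, adjusted p = 0.033, 1.14% called higher) from 48, 107 and 15 cells. With barcodes of at least 200 genes the GLUTN value was -0.35 (adjusted p = 0.82), so its direction turned. It was 3.35 after doublets were removed, 1.26 without sham 1 and 3.73 without sham 2. Among EC groups, venous ECs had 68.9, 96.8 and 222 CPM (1.42 ± 0.31, adjusted p = 0.00047) and the remaining ECs 76.2, 103 and 491 CPM (2.45 ± 0.21, adjusted p = 0.0060). Both were called, the venous one not by DESeq2 or without the filter on low counts. Microglia had 1414, 448 and 2632 CPM (1.50 ± 0.53, adjusted p = 0.13) and NPCs 524, 57.8 and 1789 CPM (2.55 ± 0.75, adjusted p = 0.073), and neither was called.

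*Ptgds* UMIs were found in every class. In PERs, the large class with the lowest mean share, 24.0%, 22.4% and 64.5% of cells held one (12.6%, 10.4% and 46.2% after thinning), and ECs had 24.5%, 25.0% and 66.4% (9.17%, 10.1% and 41.7% after thinning). No large class was free of *Ptgds*, so no share is read as expression. Its level was highest in 2VO 1 also in ASTs, OPCs and PERs, with log2 fold changes of 0.60, 0.58 and 0.89. None of these was called. The counts per cell were also uneven in sham, since 1 cell held 395 of the 1039 counts of sham 1 ECs and 1 cell held 563 of the 1242 counts of sham 2 VSMCs.

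Myelin transcripts, which like *Ptgds* are abundant in OLGs, moved with it in several classes. Of 12 such transcripts, 4 were called higher in ECs (median 1.68 against -0.01 over all genes), 10 in macrophages (3.56 against -0.01), 7 of the 8 that passed in fenestrated ECs (3.51 against -0.03), 6 in GLUTNs (2.19 against -0.02) and 0 in VSMCs (0.52 against -0.01). Endothelial transcripts moved as well, with 9 of 10 called higher in macrophages (median 6.24, summed levels 296, 234 and 6144 CPM) and 7 of 10 in GLUTNs (median 3.28, summed levels 129, 408 and 2173 CPM). The summed level of the myelin transcripts was 2453, 1115 and 4277 CPM in ECs and 1776, 1220 and 9713 CPM in macrophages. In VSMCs it was 6646, 3706 and 6309 CPM. Per 1000 counts of the myelin transcripts, *Ptgds* had 107, 114 and 179 counts in ECs, 58.8, 121 and 281 in macrophages, and 86.3, 193 and 323 in VSMCs. The values were 197, 50 and 242.5 in fenestrated ECs, 152, 400 and 274 in GLUTNs, and 120, 282 and 255 in OLGs. The part of both sets of transcripts in the result was not tested.

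**Figure D5:**
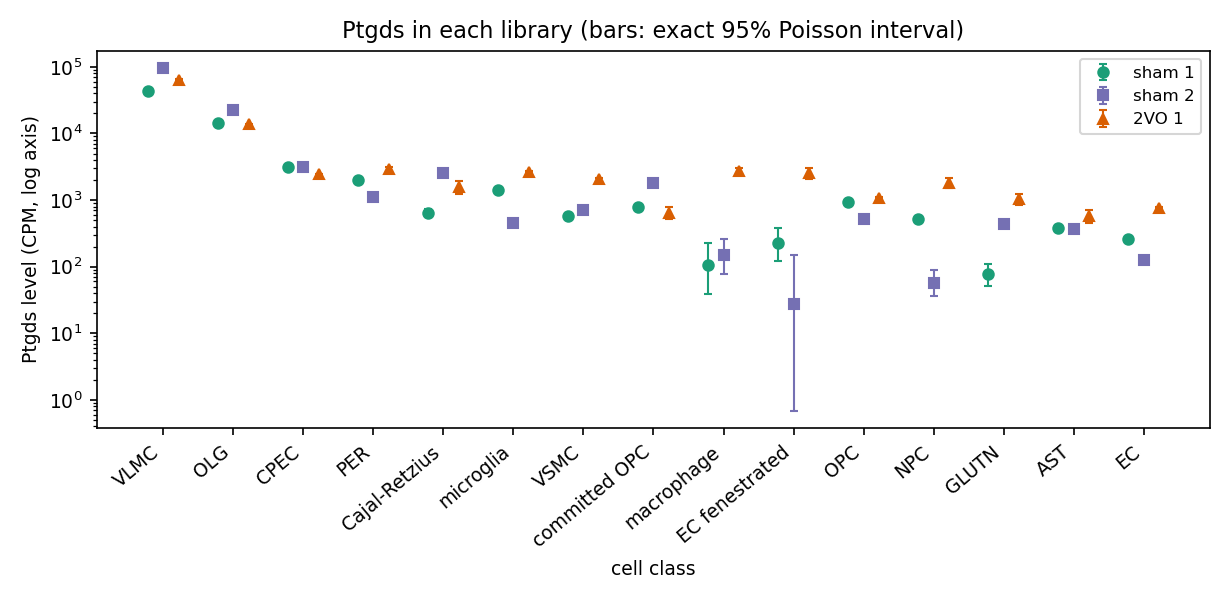
Level of *Ptgds* in CPM on a log axis by class and library, with exact 95% Poisson intervals as bars. VLMCs and OLGs are the highest classes in every library, and ECs, fenestrated ECs, macrophages, VSMCs and GLUTNs of 2VO 1 lie above both sham libraries. So do ASTs, OPCs, PERs, microglia and NPCs of 2VO 1, in which *Ptgds* was not called.

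The 2VO effects on *Ptgds* were compared between classes, only for pairs in which it had been called in either class. The share over all genes that follows has no such condition, so the shares are not like for like. Of 60 pairs of classes fitted with the library as a block, 21 differed at an adjusted p under 0.05, where 1.33% of all such terms over all genes passed. Macrophages differed from OLGs by 4.60 (adjusted p = 1.0e-08) and VSMCs from CPECs by 1.95 (adjusted p = 1.5e-04). The term missed the threshold for OLGs against ECs (-2.47, adjusted p = 0.20) and for VSMCs against OLGs (1.94, adjusted p = 0.38).

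*Ptges* (chr2:30889471-30929863, minus strand) encodes the inducible PGE2 synthase that works with COX-2. VLMCs had 132, 123 and 57.9 CPM (-1.12 ± 0.54, adjusted p = 0.64), PERs 19.3, 40.5 and 26.9 CPM (-0.26 ± 0.62) and ECs 18.2, 20.8 and 26.4 CPM (0.43 ± 0.25, adjusted p = 0.37). It was called in no class. ECs held 49.7% of its counts. In venous ECs, where *Ptgs2* rose, *Ptges* had 33.2, 21.5 and 52.8 CPM (0.93 ± 0.53, adjusted p = 0.60), from 13, 8 and 24 counts. In 2VO 1, a *Ptges* UMI was found in 15.2% of the 125 ECs with a *Ptgs2* UMI and in 5.60% of the other ECs. Within venous ECs these shares were 18.0% and 14.3%, and sham 2 had 2.86% and 6.79% in all ECs.

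*Ptgis* (chr2:167191805-167240604, minus strand) encodes prostacyclin synthase, whose product relaxes vessels and keeps platelets apart. VSMCs had 179, 237 and 109 CPM, the highest of any class, and 2VO 1 was below both sham libraries without a call (-0.95 ± 0.29, unadjusted p = 0.0047, adjusted p = 0.16). VLMCs had 47.4, 36.6 and 16.5 CPM and CPECs 14.2, 8.35 and 15.6 CPM. Venous ECs were the endothelial group with most of it, at 89.3, 45.7 and 61.6 CPM (-0.14 ± 0.38). In arterial ECs it had 4, 7 and 26 counts, or 7.44, 6.34 and 60.5 CPM, and rose by 3.13 ± 0.63 (adjusted p = 8.0e-04), but none of the 3 alternatives kept this call (adjusted p 0.085 or more), and without sham 2 the value was 2.49. In arterial ECs *Ptgis* passed the low-count filter only through 2VO 1, so it could only be called higher. The remaining ECs had 31, 12 and 0 counts, and no difference is read from a fit against 0 counts. They hold a subcluster with the arterial markers *Sema3g* and *Hey1* among its top genes, with 249, 206 and 59 cells. The part of this uneven filling was not tested. All ECs together had 19.2, 6.47 and 18.9 CPM, without a call.

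The PGE2 receptors were scarce. *Ptger4* (chr15:5206661-5244187, minus strand), the EP4 receptor, which raises cyclic AMP, was highest in macrophages with 34.8, 136 and 129 CPM from 2, 11 and 14 counts (0.49 ± 0.77), and microglia had 13.8, 12.2 and 14.3 CPM (0.13 ± 0.59). Neither was called. *Ptger3* (chr3:157566892-157645888, plus strand), the EP3 receptor, which lowers cyclic AMP, had 4, 9 and 7 counts in PERs, its highest class, at 7.71, 4.39 and 17.1 CPM, and passed the filter in no class. *Slco2a1* (chr9:102988712-103096002, plus strand), the prostaglandin carrier, had 24, 22 and 23 counts in ECs, or 6.06, 3.85 and 6.89 CPM (0.50 ± 0.52, adjusted p = 0.63). Venous ECs had 17.9, 13.5 and 22.0 CPM and fenestrated ECs 0, 3 and 10 counts. The SEs of these 3 fits, 0.52 to 0.77 on the log2 scale, set what could be detected at this depth.

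Other genes of the pathway were taken from a list of 35 phospholipases, lipases, synthases, reductases, receptors and leukotriene enzymes. In all, 30 passed the filter in some class, 16 were called in some class, and of 217 pairs of gene and class 7 were called higher and 11 lower, beside 2.3% and 3.14% of the tests over all genes. In ECs 1 of 24 was called higher and 2 lower (median 0.20 against -0.01 over all genes), where 2.44% and 0.659% of all genes were. *Pla2g4a*, the cytosolic phospholipase A2 that frees arachidonic acid, had 25.2, 30.4 and 85.9 CPM and rose by 1.62 ± 0.19 (adjusted p = 0.0023). *Mgll*, the monoacylglycerol lipase that supplies arachidonic acid from an endocannabinoid, had 93.2, 104 and 38.9 CPM and fell by 1.34 (SE 0.20, adjusted p = 0.0076). It was among the top genes of an EC subcluster that held 249, 206 and 59 cells, and the part of this uneven filling was not tested. The thromboxane receptor *Tbxa2r* had 29.5, 32.0 and 13.5 CPM and fell by 1.19 (SE 0.26, adjusted p = 0.041). In venous ECs *Pla2g4a* had 58.6, 140 and 277 CPM and rose by 1.49 ± 0.31 (adjusted p = 1.8e-04).

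In microglia 1 of 22 was called higher and 3 lower (median -0.35 against 0.01), where 4.11% and 2.33% of all genes were. *Alox5ap*, which feeds arachidonic acid to 5-lipoxygenase, had 315, 354 and 80.7 CPM and fell by 2.05 (SE 0.26, adjusted p = 0.0099), close in size to *Hpgd*, which it also resembled over classes (r = 0.84 over 45 points). *Ltc4s*, the leukotriene C4 synthase, had 595, 733 and 282 CPM and fell by 1.24 (SE 0.26, adjusted p = 0.035), and the lipase *Abhd6* fell by 1.38 (SE 0.29, adjusted p = 0.036). *Abcc4*, an exporter of prostaglandins, rose by 2.77 ± 0.52 (adjusted p = 0.026) from 5, 6 and 41 counts. Within clusters 12 and 9, none of the 18 and 15 list genes tested was called.

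In OPCs 3 of 20 were called higher and 5 lower, where 11.1% and 18.7% of all genes were. The lower ones included *Ptges2* (33.6, 43.0 and 15.5 CPM, -1.28 ± 0.32) and *Ptges3* (268, 258 and 149 CPM, -0.82 ± 0.20), which encode the other PGE2 synthases, as well as *Cbr1*, *Fam213b* and *Akr1b3*, and the higher ones were *Abcc4*, *Ltc4s* and *Ptgfrn*. In CPECs the phospholipase *Pla2g16* fell by 0.85 (SE 0.22, adjusted p = 0.016) from 316 and 309 to 174 CPM, and the lipase *Daglb* rose by 0.89 ± 0.25. In GLUTNs *Lta4h* rose by 3.08 ± 0.86 (adjusted p = 0.032) on 6, 8 and 10 counts.

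The genes most like each of the 10 were found by Pearson correlation of log2(CPM + 1) over 45 points, 3 libraries in 15 classes, as a description with no test. *Ptgs2* was most like *Birc3* (r = 0.73), *Il6ra* (0.73) and the clock gene *Per1* (0.68). *Ptgds* was most like *Apod* (0.85), a lipocalin of OLGs and fibroblasts, and *Ptgis* was most like *Vgll3* (0.86). *Ptgs1* was most like *Tnfaip2* (0.83), *Unc93b1* (0.82) and *Tlr4*, *Hpgd* like *Gpr183* (0.86), and *Hpgds* like *Arhgap30* (0.93) and *Spi1*.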

How the data were processed

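Single-cell RNA was measured with 10x libraries. The authors aligned the reads to mm10 with Cell Ranger and deposited raw UMI counts per gene and barcode. The submitters' notes also name Seurat 3.2.2. Whether depth was equalized between libraries was not given in the sources used here. Cells (at least 650 genes) were clustered with scanpy 1.11.5 (2000 variable genes without the 10 members, 30 components, 15 neighbours, Leiden resolution 1.0) and named from at least 3 markers, by a rule set after the clusters were seen. Scrublet marked 102, 132 and 1 cells at its automatic threshold, so doublets were kept, and an alternative removed cells with a score over 0.2, chosen after the scores were seen. Counts were summed per library and class with at least 10 cells in each library and tested with edgeR 4.0.16 (quasi-likelihood, TMM, filterByExpr, Benjamini-Hochberg over the genes of the class) in R 4.3.3, with DESeq2 1.42.0 as an alternative. Differences between classes were tested as class by condition terms with the library as a block. The script was tested on simulated data. The members and lists were chosen with earlier results of these data known. Intervals and limits from 0 counts, 3 of the total, cover counting error only. Genes named are the 10 members, list genes that were called, and the 3 genes most alike.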

Additional observations from a re-analysis of the deposited data

Results flagged for a closer look

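For 4 of the 10 genes, besides *Ptgs2* below, a class by condition term passed the test of the difference (edgeR's quasi-likelihood test, adjusted p under 0.05). Over all genes 1.33% of all such terms passed. A pair was fitted for a gene only where that gene had been called in either class. The shares over all genes have no such condition and are not like for like. For *Ptgds*, 21 of 60 pairs of classes differed, among them macrophages against microglia (4.4 against 1.50 on the log2 scale, adjusted p = 0.021, in a pair where 2.24% of genes passed) and ECs against CPECs (1.98 against -0.34, adjusted p = 0.017, 2.66% of genes). For *Hpgd* it was 1 of 6 pairs, OLGs against microglia (3.17 against -2.47, adjusted p = 0.049), where OLGs rest on 9, 2 and 10 counts. For *Hpgds* it was 1 of 6, CPECs against macrophages (3.63 against -0.39, adjusted p = 2.0e-05, 7.58% of genes), and for *Ptgs1* 1 of 7, OPCs against microglia (2.37 against -0.75, adjusted p = 0.049). *Hpgd* in OLGs, *Hpgds* in CPECs and *Ptgs1* in OPCs passed the low-count filter only through 2VO 1. The direction of these terms was thus partly set by the filter, and no difference is read from them. For *Ptgs2* 1 of 4 terms passed, ECs against GLUTNs, but GLUTNs had 0 counts in the 15 cells of 2VO 1 and 1 cell held 21 of the 27 counts of sham 1, so that no difference is read from it. Beside the value of *Hpgd* in OLGs, the microglial transcripts had a median of 4.04 there, and their part was not tested.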

How the results depend on the processing

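Of the pairs of gene and class, 9 were called, against 18 after removing doublets by Scrublet (13 higher and 5 lower), 20 without the low-count filter (16 up, 4 down) and 4 with DESeq2. The other alternatives gave 9 to 11. The shares of all genes called under the alternative settings are not given here. A change in these counts is therefore not read as particular to the prostaglandin genes. Over all kept cells the count of 0 became 1 with DESeq2 and 1 with no filter on low counts. In endothelial and oligodendrocyte subtypes the count of 7 became 2 with DESeq2. The share of 2VO 1 ECs with a *Ptgs2* UMI went from 10.8% to 5.764% when cells were thinned to 1000 UMIs. *Ptgds* in GLUTNs reversed to -0.3478 with barcodes of at least 200 genes. With classes ranked by a mean over cells, and with barcodes of at least 200 genes, VLMCs had the highest *Ptgs2* level instead of ECs. Leaving out 1 sham library leaves 1 library against 1 and no test, and the fold changes then ran from 3.73 to 4.27 for *Ptgs2* in ECs, from -2.51 to -2.34 for *Hpgd* in microglia and from 2.02 to 3.95 for *Hpgds* in CPECs. No paired analysis was possible because the analysed groups share only replicate number 1. The 2VO values come from 1 library, the shallowest, so that library and condition cannot be told apart. The causes of these changes were not tested.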

Other observations

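A cluster of 280 cells that could not be named, led by *Meg3* with the neuronal genes *Gad2* and *Slc17a7*, had 88.2, 161 and 1371 CPM of *Ptgds*. Ependymal-like cells, 73, 80 and 9 in number, were too few in 2VO 1 for a test and had 3, 20 and 1 *Hpgds* counts. *Slco2a1* UMIs were found in 18.8%, 8.57% and 5.60% of the ECs with a *Ptgs2* UMI, against 1.81%, 1.09% and 1.06% of the other ECs, in sham 1, sham 2 and 2VO 1. These shares were not tested, and cells with more UMIs are more likely to hold both.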
